A study of Mus musculus with 8 samples.

Results

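The PCI/MPN octamer of the translation initiation factor eIF3 is encoded by 8 genes. Eif3a, Eif3c, Eif3e, Eif3k, Eif3l and Eif3m encode subunits with a PCI domain, and Eif3f and Eif3h encode subunits with an MPN domain. The genes were chosen by symbol in the deposited gene lists, with earlier results of these data known. No measured value entered the rule itself, and all 8 were found among the 32285 genes counted. eIF3 is the largest of the initiation factors: it binds the small ribosomal subunit, helps to recruit the initiator tRNA and the mRNA, and keeps the large subunit away until a start codon is found. The octamer is its structural core, and PCI and MPN proteins build the proteasome lid and the COP9 signalosome in the same way. In lymphocytes, which enlarge and divide once activated, mRNAs of the translation apparatus are known to be among the transcripts that increase with cell growth.

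The data came from 8 single-cell libraries of mouse spleen, 2 for each combination of genotype and sort. cKO mice were Eif3e fl/fl Cγ1Cre Rosa26-YFP LSL, and control mice were Cγ1Cre Rosa26-YFP LSL littermates, so that both genotypes carried Cre and the reporter. Animals were 2 months old, and cells were sorted either as total live splenocytes or as YFP+ cells. Cγ1Cre is expressed from the immunoglobulin γ1 locus, so it acts in B cells that have been activated, and a YFP+ cell is one in which Cre has opened the reporter, which does not by itself show that both Eif3e alleles were deleted. Each library pooled 2 to 3 mice and belonged to batch 1 or batch 2. The kit counts the 3′ ends of transcripts, and the floxed exons are not located in the sources used here. A transcript that lost those exons could still be counted, so Eif3e counts check the labels only in part.

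The genes lie on chromosomes 2, 7, 15 and 19 (GRCm38, GENCODE annotation), all as protein-coding genes. Eif3e (ENSMUSG00000022336) is at chr15:43250058-43282719 on the minus strand, and Eif3h (chr15:51786558-51865523, minus) and Eif3l (chr15:79075179-79094405, plus) are on the same chromosome. Eif3c (chr7:126546455-126566411, minus), Eif3f (chr7:108934417-108942951, plus) and Eif3k (chr7:28971372-28981864, minus) are on chromosome 7, Eif3a is at chr19:60761117-60790658 (minus) and Eif3m at chr2:104999656-105017080 (minus).

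Many mRNAs of the translation apparatus begin with a run of pyrimidines, through which their translation is regulated, so the letters at the transcription start are shown for the genes that matched the RefSeq promoter table (GRCm38.p6). 6 of the 8 matched, and Eif3e and Eif3h did not. Each line holds 30 bases of the coding strand, 5′ to 3′, with 10 bases before the start that RefSeq gives, and capitals mark the longest unbroken run of C and T.
Eif3a: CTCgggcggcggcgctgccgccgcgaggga
Eif3c: ctgCTCagagggactcggcagcttagctgg
Eif3f: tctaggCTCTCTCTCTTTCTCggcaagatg
Eif3k: aaccggcgctggtgctgaaagcgCCTTTCC
Eif3l: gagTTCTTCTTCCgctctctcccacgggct
Eif3m: cggtcggcgtgTTTCTggatcggagcgtct

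These windows are chr19:60790674-60790703 (minus) for Eif3a, chr7:126566347-126566376 (minus) for Eif3c, chr7:108934405-108934434 (plus) for Eif3f, chr7:28981869-28981898 (minus) for Eif3k, chr15:79075213-79075242 (plus) for Eif3l and chr2:105017008-105017037 (minus) for Eif3m. RefSeq and GENCODE place the starts differently, and the windows of Eif3a and Eif3k lie wholly upstream of the GENCODE starts given above. Those of Eif3c, Eif3l and Eif3m lie wholly downstream of the GENCODE starts. Only the window of Eif3f covers its GENCODE start. The run spanned the RefSeq start in Eif3f and in Eif3l. In Eif3f it was 15 bases long, and among all 32851 windows of 30 bases, 0.825% held a run of at least that length. The run of Eif3l, 10 bases long, had an equal or longer counterpart in 4.77% of windows, that of Eif3k (7 bases) in 17.9% and that of Eif3m (5 bases) in 46.4%. In Eif3a and Eif3c the longest run was 3 bases, a length that 88.3% of windows reached. Only C and T on the coding strand were searched, and a run of letters is a description of the window.

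After filtering, 83704 cells were left, with 71868375 to 105099466 UMIs per library and median counts of 5250 to 6810.5 UMIs per cell. B-lineage cells made up 92.3% to 98.3% of the YFP+ libraries and 62.2% to 66.8% of the total libraries. Cell classes were rebuilt by clustering and named from marker lists, so each name means "like". Of 81654 distinct barcodes, 2029 were present in more than 1 library, and any pair of libraries shared 51 to 102. Immunoglobulin genes took 8.52% and 7.41% of the UMIs in the control YFP+ libraries and 1.37% to 2.21% in the others. Batch 2 stood above batch 1 for all 8 genes in all 4 groups, with a ratio of CPM (a gene's UMIs over all UMIs of the summed cells, brought to 1 common total) between 1.10 and 1.53. Values are therefore given as a pair, batch 1 first, and the smallest p that an exact permutation test of 2 against 2 libraries can give is 0.333.

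Over all cells, Eif3e did not separate the genotypes on either scale. It stood at 2.06 and 2.71 UMIs per cell in cKO YFP+, 2.15 and 2.41 in control YFP+, 1.71 and 2.41 in cKO total and 1.84 and 1.84 in control total libraries. The summed UMIs of the 8 genes came to 2286 and 2745 CPM in cKO YFP+, 2027 and 2688 in control YFP+, 1959 and 2509 in cKO total and 1846 and 2401 in control total libraries. In both scales the genotypes overlapped within each sort. In all YFP+ B-lineage cells summed, edgeR called none of the 8 genes, with 0 also at an unadjusted p under 0.05, where it called 7.59% of the genes tested (Eif3e log2 fold change 0.04, SE 0.32, adjusted p = 0.981).

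The genotypes came apart in YFP+ pre-GCB cells, the activated B cells on the way to the germinal center. Eif3e, the targeted gene, stood at 156 and 160 CPM in cKO and 275 and 285 CPM in control, and the cKO libraries were below both controls. It fell by 0.73 on the log2 scale (SE 0.18, edgeR adjusted p = 0.0368, n = 2 libraries per group), and it was the only one of the 8 called, where 10.8% of the genes tested were called. Eif3c, a scaffold subunit that contacts the small ribosomal subunit, was at 479 and 520 CPM in cKO and 340 and 396 CPM in control, again without overlap but short of the threshold (log2 fold change 0.54, SE 0.20, adjusted p = 0.123). Eif3a, the largest subunit and the partner of Eif3c in the scaffold, was at 534 and 608 CPM in cKO and 463 and 547 CPM in control, ranges that overlap (log2 fold change 0.27, SE 0.21, adjusted p = 0.44). The other 5 genes lay between 0.00 and 0.23 on the log2 scale, with adjusted p from 0.561 to 0.994. Of these, Eif3f, Eif3h, Eif3k and Eif3m overlapped, and Eif3l was at 91.7 and 98.6 CPM in cKO against 101.6 and 101.7 CPM in control.

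Several of these calls depended on how the libraries entered the fit. With the batch as a block, 3 of the 8 genes were called in YFP+ pre-GCB cells, where 27.7% of the genes tested were: Eif3e (adjusted p = 0.000136), Eif3c (0.00071) and Eif3a (0.0305). The Eif3e call was lost without cKO YFP+ batch 1 (adjusted p = 0.206), without cKO YFP+ batch 2 (0.164) and without control YFP+ batch 2 (0.0794), and it was kept without control YFP+ batch 1 (0.0244). DESeq2 gave −0.72 with an adjusted p of 0.00686.

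Per cell, the same class gave another picture, and the cKO cells held more UMIs. The median pre-GCB cell had 12850 and 16842 UMIs in cKO YFP+ and 9675 and 5702 UMIs in control YFP+ libraries. Eif3e stood at 2.97 and 3.54 UMIs per cell in cKO and 3.69 and 2.58 in control, which overlap. Eif3h, an MPN subunit, stood at 6.51 and 8.52 UMIs per cell in cKO and 4.38 and 3.31 in control, with both cKO libraries above. The 6 remaining genes likewise did not overlap, cKO being higher in each: Eif3a was at 10.2 and 13.4 UMIs per cell against 6.21 and 4.95, and Eif3c at 9.11 and 11.5 against 4.56 and 3.58. The median UMIs per cell of all genes together stood apart in the same direction. How many of all genes did so was not counted. Scaled per cell, Eif3e had a log2 fold change of 0.05 (adjusted p = 0.92) and 5 of the 8 genes were called higher. Of the genes tested, 20.1% were called in either direction, while the median of all genes tested moved to 0.76. Relative to that median Eif3e was low and the others lay above it, from 0.78 (Eif3l) to 1.34 (Eif3c).

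**Figure D1:**
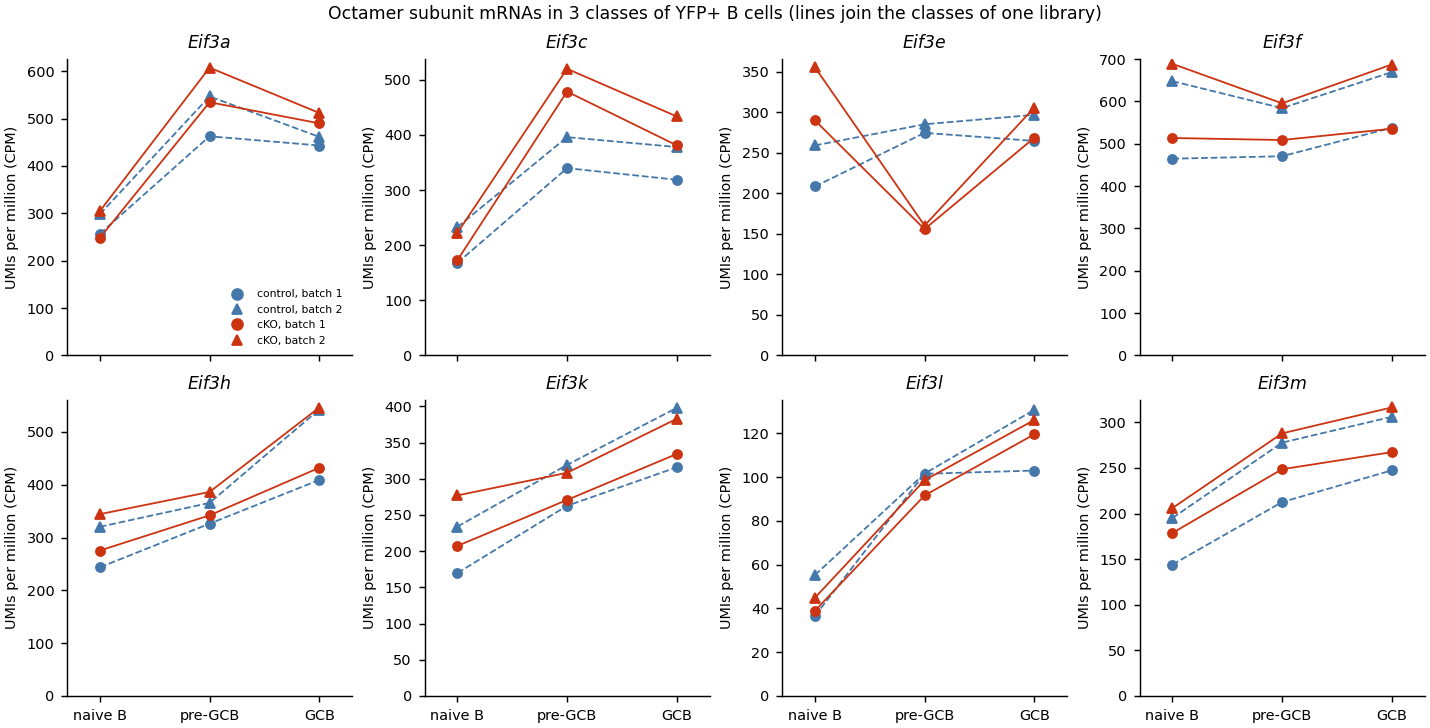
Level of each octamer gene in CPM (vertical axis, from 0) in 3 classes of YFP+ B cells (horizontal axis), with 1 point per library and lines joining the classes of a library; red is cKO, blue is control, circles are batch 1 and triangles batch 2. Eif3e dips in the cKO lines alone: its cKO levels are 290 and 356 CPM in naive B cells, 156 and 160 in pre-GCB cells and 269 and 306 in GCB cells.

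The share of Eif3e among octamer UMIs needs no scaling between libraries, because numerator and denominator come from the same cells. In YFP+ pre-GCB cells Eif3e made up 5.93% and 5.41% of octamer UMIs in cKO (5.67% ± 0.37, SD, n = 2) and 11.2% and 9.92% in control (10.6% ± 0.91). The difference was −4.90 percentage points, −5.29 within batch 1 and −4.51 within batch 2, and the exact permutation test gave p = 0.333, the smallest that 2 against 2 allows. In pre-GCB cells of the total libraries, where YFP+ and YFP-negative cells are mixed, the share was 9.41% ± 0.77 in cKO and 10.8% ± 1.06 in control (n = 2), a difference of −1.38 points without overlap. Both differences depended on the classes. At Leiden resolution 1.5 they were −3.54 points in YFP+ libraries, without overlap, and −0.46 in total libraries, with overlap, and with classes from the control libraries they were −2.18 and −0.48, both with overlap. A fall in the total libraries was not particular to pre-GCB cells. Among classes that do not use the Cre locus, the difference was −1.59 points in Treg, −1.22 in CD8 T and −1.03 in NK cells. It was −0.51 in CD4 T cells outside Tfh and Treg, and from −0.16 to 0.53 in monocytes or macrophages and DCs. The 95% exact intervals for counting error overlapped in both batches for NK cells and in batch 1 for Treg.

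The pre-GCB class was made of 2 clusters, and they differed. Cluster 9 was led by Fabp5, Timd2 and Top2a, the last a gene of dividing cells, and cluster 6 by Mreg, Ccnd2 and Mir155hg. These values were looked at after the class result was known and carry no test. In cluster 9, Eif3e made up 4.49% (95% exact interval 4.33 to 4.65) and 4.13% (4.0 to 4.27) of octamer UMIs in cKO YFP+ and 10.7% (9.97 to 11.6) and 10% (9.12 to 10.9) in control YFP+ libraries. In cluster 6 the shares were 10.3% (9.92 to 10.8) and 9.03% (8.70 to 9.36) in cKO YFP+ and 11.96% (10.9 to 13.05) and 9.82% (8.81 to 10.9) in control YFP+ libraries. The intervals cover counting error alone. In cluster 6 the shares of the genotypes overlapped, though cKO was the lower in each batch. Eif3e was at 239.5 and 257 CPM there in cKO YFP+ and 302 and 293 CPM in control YFP+ libraries, without overlap, so Eif3e was at lower CPM in cKO in both clusters and the gap was wider in cluster 9.

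The 2 clusters also differed in depth and in how much of the class they held. Cluster 9 had a median of 28583 and 29395 UMIs per cell in cKO YFP+ and 22593 and 17442.5 in control YFP+ libraries, and cluster 6 had 8315.5 and 9770 against 6204 and 4446.5. Of the pre-GCB cells, 718 of 1640 and 863 of 1732 were in cluster 9 in cKO YFP+ libraries, and 104 of 294 and 84 of 288 in control YFP+ libraries. With its higher counts, cluster 9 weighs more in the cKO sum of the class. Within cluster 9 alone, Eif3e stood at 123 and 124 CPM in cKO YFP+ and 258 and 280 CPM in control YFP+ libraries. A shared cluster number does not make the cells alike. Depth differed between the genotypes within cluster 9, and classes from the control libraries split its cells differently, as given below.

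Within cluster 9 Eif3e was low per cell as well. It stood at 3.87 and 4.01 UMIs per cell in cKO YFP+, 6.15 and 5.10 in control YFP+, 4.68 and 5.90 in cKO total and 6.62 and 6.18 in control total libraries. The other 7 genes together stood at 82.4 and 93.0 UMIs per cell in cKO YFP+, 51.1 and 45.9 in control YFP+, 55.2 and 72.7 in cKO total and 50.5 and 55.7 in control total libraries. The cKO YFP+ libraries were thus the lowest of the 8 for Eif3e and the highest for its partners. Among the partners, Eif3c stood apart most: 551 and 575 CPM in cKO YFP+ against 328 and 334 CPM in control YFP+ libraries, while Eif3f was at 511 and 580 against 480 and 598 CPM and overlapped.

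In single cells of cluster 9 the share was spread around a low centre. Among cells with at least 40 octamer UMIs, the median share of Eif3e was 3.92% (quartiles 2.17 and 6.90) in 596 cells of cKO YFP+ batch 1 and 3.54% (2.02 and 6.67) in 750 cells of batch 2. In control YFP+ libraries it was 10.3% (8.37 and 13.1) in 63 cells and 9.68% (7.84 and 13.5) in 53 cells. In cKO total libraries the medians were 8.33% in 43 cells and 7.14% in 69 cells, and in control total libraries 10.9% in 32 cells and 10.5% in 36 cells. The upper quartile of cKO YFP+ cells lay below the lower quartile of control YFP+ cells. Eif3e was still read in most of these cells: 6.21% and 4.67% of the cKO YFP+ cells had no Eif3e UMI.

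**Figure D2:**
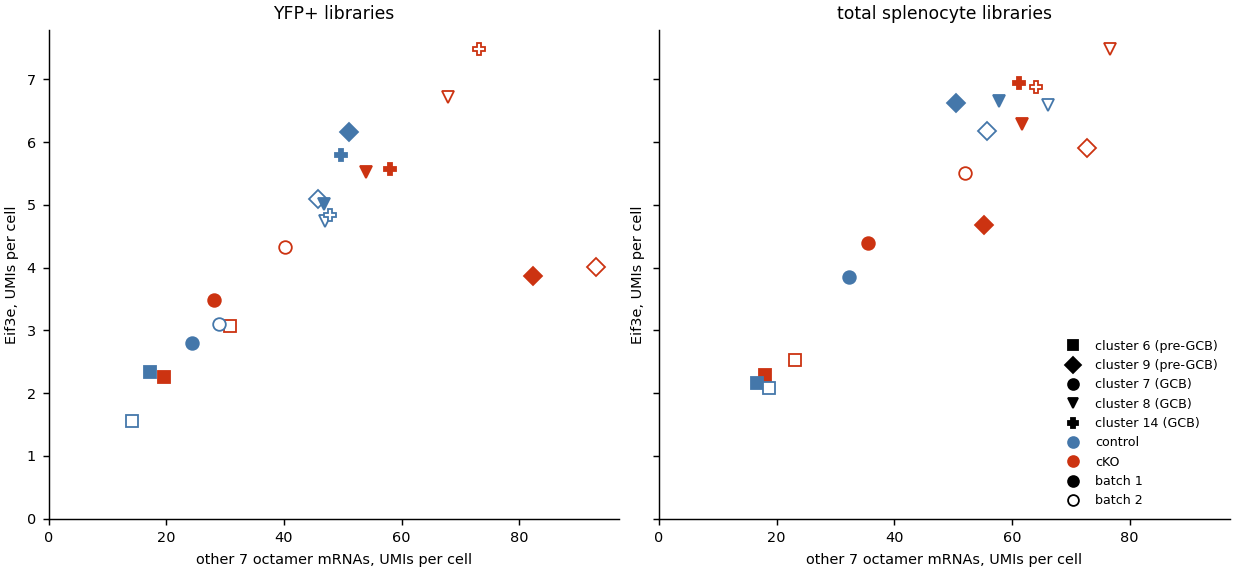
Eif3e UMIs per cell (vertical axis) against the summed UMIs per cell of the other 7 octamer genes (horizontal axis) in the 2 pre-GCB and 3 GCB clusters, 1 point per library with at least 20 cells, YFP+ libraries on the left and total libraries on the right. Cluster 9 of the cKO YFP+ libraries (red diamonds, 3.87 and 4.01 Eif3e UMIs with 82.4 and 93.0 of the others) lies to the right of all other points, with fewer Eif3e UMIs per cell than cluster 9 in the other libraries.

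The class boundary mattered here. When classes were learned on the control libraries and passed to the cKO cells, 1084 of 1581 cKO YFP+ cells of cluster 9 (68.6%) were assigned to GCB and 153 to pre-GCB. Of the 188 control YFP+ cells of cluster 9, 167 (88.8%) were in a class without a name, 19 in GCB and 2 in pre-GCB, so under these classes the cells of cluster 9 were split differently in the 2 genotypes. The pre-GCB log2 fold change of Eif3e was then −0.21 (adjusted p = 0.94), and that of GCB became −0.79 (adjusted p = 0.0378). At Leiden resolution 1.5 the pre-GCB value was −0.39 (adjusted p = 0.447).

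YFP+ GCB cells, of the class that carries out affinity selection in the germinal center, showed no such difference in the classes as clustered. Eif3e was at 269 and 306 CPM in cKO YFP+ and 265 and 297 CPM in control YFP+ libraries, and it made up 9.499% and 9.24% against 10.03% and 9.33% of octamer UMIs. edgeR called 0 of the 8 genes (0 at an unadjusted p under 0.05, DESeq2 0), where 1.27% of the genes tested were called, and the log2 fold changes ran from 0.04 (Eif3k) to 0.26 (Eif3c). For Eif3e it was 0.07 with an SE of 0.24. In GCB cells of the total libraries the share was 9.62% ± 0.48 in cKO and 10.3% ± 0.17 in control (n = 2), without overlap. The control total libraries held 63 and 48 GCB cells.

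In YFP+ naive B cells the direction was the opposite. Eif3e stood at 290 and 356 CPM in cKO and 209 and 259 CPM in control libraries, without overlap. Per cell it was at 1.51 and 1.94 against 0.850 and 0.761 UMIs, but the cKO cells were also deeper. Their median was 4853 and 5112 UMIs against 3936 and 2790.5 in control. The whole octamer stood at 10.04 and 13.3 UMIs per cell in cKO and 6.89 and 6.59 in control. A higher count per cell was thus not particular to Eif3e. The Eif3e share of octamer UMIs was 15.1% and 14.6% in cKO and 12.3% and 11.6% in control libraries, 2.88 points higher in cKO. edgeR and DESeq2 each called 0 of the 8 genes (0 had an unadjusted edgeR p below 0.05), where 0.235% of the genes tested were called; the value for Eif3e was 0.55 (SE 0.28, adjusted p = 0.804). With the batch as a block Eif3e (0.55, adjusted p = 4.54e-06) and Eif3k (0.35, adjusted p = 0.00823) were called higher, where 16.4% of the genes tested were called.

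Different clusters held the naive B cells of the genotypes: cluster 1 held most of them in control and cluster 2 in cKO libraries. Within cluster 1, Eif3e stood at 262 and 284 CPM in cKO YFP+ (98 and 64 cells) and 207 and 259 CPM in control YFP+ libraries. Within cluster 2 it stood at 291 and 358 CPM in cKO YFP+ and 242 and 250 CPM in control YFP+ libraries (96 and 46 cells). In the total libraries the genotypes overlapped in both clusters. These values carry no test. Among the 10 leading genes of cluster 2 were Lifr and Xist, the RNA of the inactive X chromosome in females, and the sources used here do not give the sex of the pooled mice. A further B cluster (cluster 0, 13285 cells) stayed without a name: its score was highest for the naive B markers, but none of them was among its 10 leading genes and Il4i1, a pre-GCB marker, was. It came almost wholly from cKO mice, with 3564 and 5528 cells in cKO YFP+ and 1769 and 2407 in cKO total libraries, so it allows no comparison of genotypes. Eif3e stood at 292 and 369 CPM there in cKO YFP+ libraries and made up 14.4% and 14.01% of octamer UMIs, close to the cKO naive B cells beside it.

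The 5 remaining YFP+ classes that could be tested were MZB, memory B, B1, interferon-response B and plasma cells. None of their 40 tests of octamer genes was called and none had an unadjusted p under 0.05, where 0.982% of all tests in these classes were called, and DESeq2 called none either. Eif3e made up more of the octamer UMIs in cKO in B1 cells (13.5% ± 0.18 against 12.2% ± 0.78), MZB cells (15.4% ± 1.13 against 13.6% ± 1.24) and interferon-response B cells (14.3% ± 0.68 against 12.4% ± 0.14), each n = 2 and without overlap. The differences by batch were 0.67 and 2.02 points in B1 cells. In MZB cells they were 0.10 and 3.46, the second with 122 cKO cells. In batch 1 the exact intervals overlapped for B1 cells (12.7 to 14.1 against 12.1 to 13.3) and MZB cells (13.6 to 15.6 against 13.9 to 15.1). For interferon-response B cells the exact intervals overlapped in batch 1 (12.3 to 15.4 against 10.3 to 14.5) and batch 2 (13.6 to 16.0 against 10.3 to 14.9). In plasma cells Eif3e made up less, 6.73% ± 0.19 against 8.07% ± 0.05. In the total libraries the shares of the genotypes overlapped in B1, MZB, interferon-response B and plasma cells. Plasma cells stood there at 7.77% ± 0.91 in cKO and 7.72% ± 1.36 in control. With the batch as a block 6 of the 40 tests were called, where 6.77% of all tests were, all higher in cKO: Eif3e in B1 cells (0.39, adjusted p = 0.0423), and Eif3e, Eif3f, Eif3h, Eif3k and Eif3m in memory B cells, between 0.46 and 0.71. The memory B class held 60 and 50 cells in cKO YFP+ libraries and 760 and 960 in control YFP+ libraries.

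**Figure D3:**
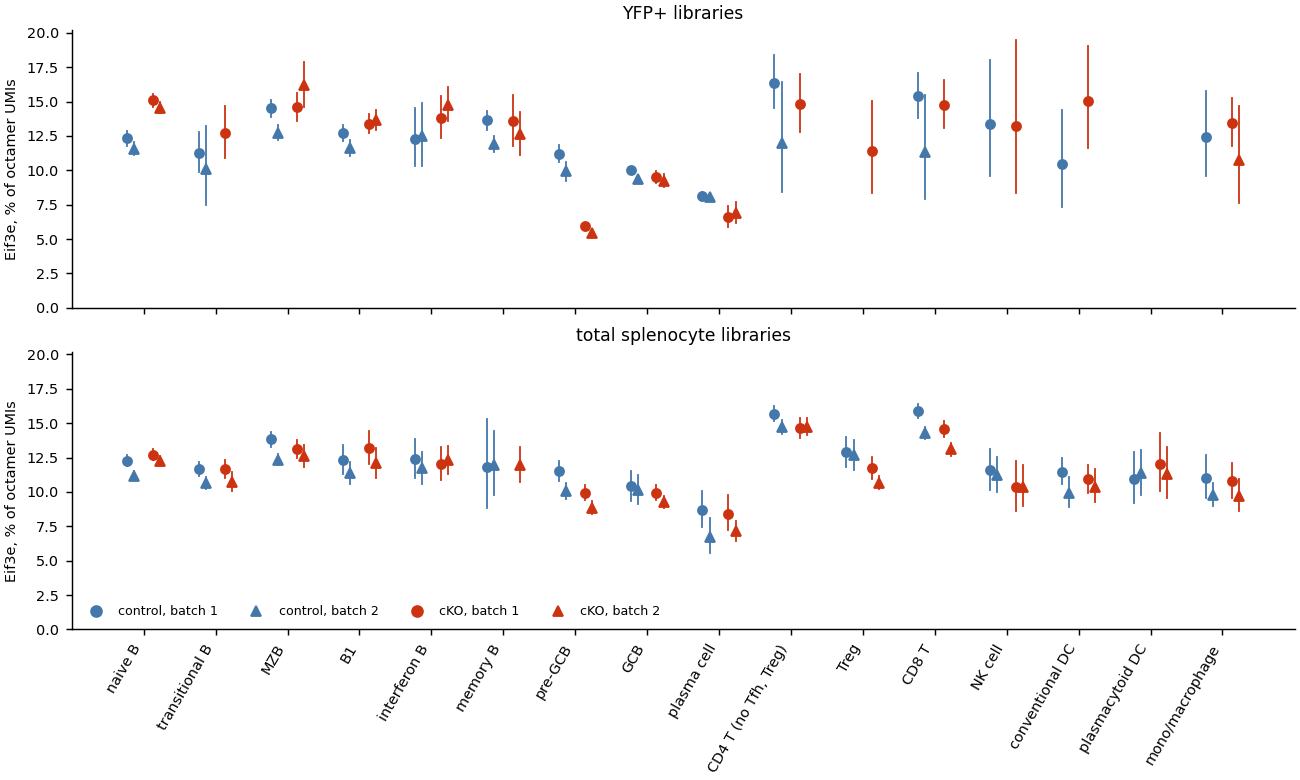
Eif3e as a percentage of the octamer UMIs (vertical axis, from 0) by cell class, 1 point per library with a 95% exact interval for counting error; YFP+ libraries are above, total libraries below. In YFP+ pre-GCB cells the cKO libraries (red) are at 5.93% and 5.41% and the control libraries (blue) at 11.2% and 9.92%, while in YFP+ naive B cells cKO is above control.

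The change from naive B to pre-GCB within each YFP+ library was compared between genotypes, which takes out the level of the library. For Eif3e the naive-to-pre-GCB step differed by −1.28 on the log2 scale (SE 0.14, edgeR adjusted p = 4.18e-06). In both control libraries Eif3e was higher in pre-GCB than in naive B cells (275 and 285 against 209 and 259 CPM), and in both cKO libraries it was lower (156 and 160 against 290 and 356 CPM). Eif3c was the other member called, with a difference of 0.47 (SE 0.14, adjusted p = 0.0309), so 2 of 8 were called where 14.1% of the genes tested were. The Eif3e call was kept whichever library was left out, with values from −1.36 to −1.13. With classes from the control libraries it was lost (−0.83, adjusted p = 0.0845), and Eif3c then turned to −0.18 (adjusted p = 0.824). The Eif3c call was lost without cKO YFP+ batch 1 (adjusted p = 0.228), cKO YFP+ batch 2 (0.056) or control YFP+ batch 2 (0.202), and with cluster 0 added to the naive B class (0.127).

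For the step from naive B to GCB the difference in Eif3e was −0.50 (SE 0.14, adjusted p = 0.0361), and 1 of 8 genes was called where 5.57% of the genes tested were. Eif3e was lower in naive B than in GCB cells of control libraries, and in cKO libraries it was higher in naive B than in GCB cells. This call was lost when any 1 of the 4 libraries was left out, with adjusted p from 0.0731 to 0.397, and with classes from the control libraries the value was −1.43. The naive B values, which differed between genotypes in the other direction, enter both step differences.

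**Figure D4:**
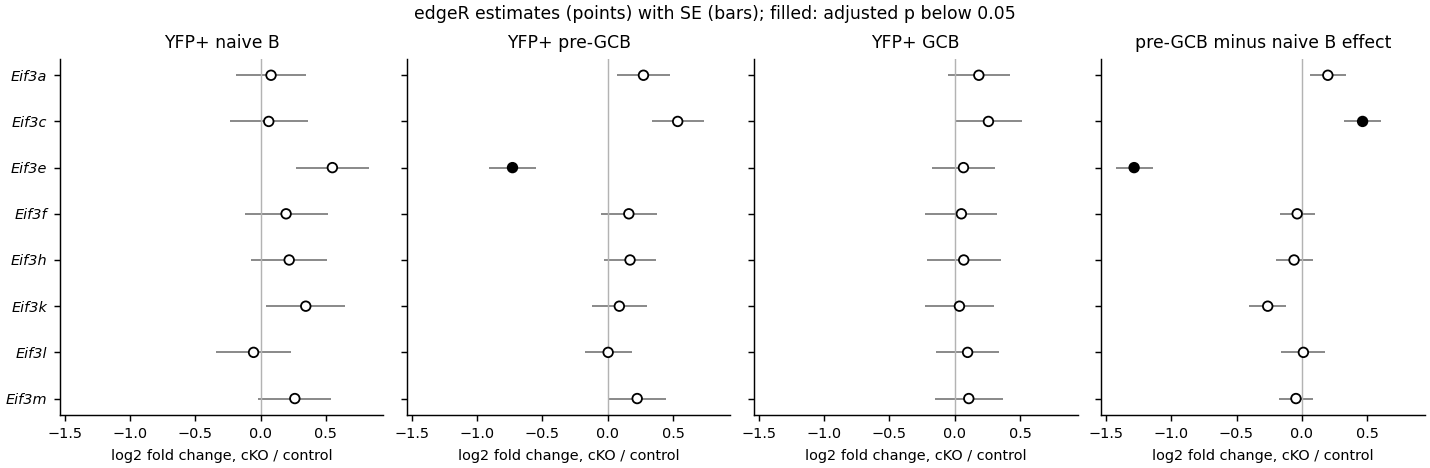
Log2 fold change of cKO over control (horizontal axis) for the 8 octamer genes in YFP+ naive B, pre-GCB and GCB cells, and the difference between the pre-GCB and naive B effects; points are edgeR estimates, bars 1 SE, and filled points passed an adjusted p of 0.05. Eif3e is filled in pre-GCB cells (−0.73) and in the difference (−1.28), and Eif3c in the difference (0.47).

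Whether the genotype effect differed between YFP+ and total libraries was tested with all 8 libraries. In pre-GCB cells the difference for Eif3e was −0.60 (SE 0.24, adjusted p = 0.501), and 0 of 8 genes were called, 1 at an unadjusted p under 0.05, where 0.00912% of the genes tested were called. With a block for genotype and batch, which takes the YFP+ and total libraries of the same genotype and batch as a pair, the Eif3e value was −0.60 with an adjusted p of 0.0015, and Eif3c was also called (0.45, adjusted p = 0.0144), where 12.4% of the genes tested were called. The sources used here do not say that such a pair came from the same mice. In naive B cells (0% of the genes tested called) and in all B-lineage cells (1.57%) 0 of 8 were called and 0 had an unadjusted p under 0.05. The block added Eif3l in B-lineage cells, at −0.44 (adjusted p = 0.0315), where 18.7% of the genes tested were called.

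T, NK and myeloid cells do not use the immunoglobulin locus that drives Cre. In the total libraries Eif3e of CD8 T cells stood at 301 and 352 CPM in cKO and 325 and 368 CPM in control, and at 2.31 and 3.14 against 2.70 and 2.56 UMIs per cell. CD4 T cells outside the Tfh and Treg clusters had 297 and 374 CPM in cKO and 299 and 362 CPM in control. Monocytes or macrophages had 181 and 225 CPM in cKO and 189 and 240 CPM in control, and conventional DCs 200.9 and 244 against 211 and 229 CPM. In CPM the genotypes overlapped in each of these 4 classes, and the batches stood further apart than the genotypes. As a share of octamer UMIs, Eif3e of CD8 T cells was at 14.6% and 13.1% in cKO and 15.9% and 14.3% in control. These ranges overlap, but within each batch cKO was lower and the exact intervals stood apart. Treg cells did not overlap: Eif3e was at 232 and 267 CPM in cKO and 271 and 317 CPM in control, and made up 11.2% ± 0.76 against 12.8% ± 0.15 of octamer UMIs (n = 2), but it was not called (log2 fold change −0.23, SE 0.25, adjusted p = 0.917). In NK cells the share was 10.4% ± 0.02 in cKO and 11.4% ± 0.25 in control (n = 2), values that did not overlap. Their exact intervals did overlap, at 8.64 to 12.3 against 10.1 to 13.1 in batch 1. In batch 2 they were 8.94 to 11.97 against 10.02 to 12.5, so the NK shares were not separated beyond counting error. The NK levels overlapped at 176 and 252 against 194 and 253 CPM. In CD4 T cells as a whole the share was 2.07 points lower in cKO, and the libraries did not overlap.

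Over 17 classes or sums of classes of the total libraries, none of the 136 tests of octamer genes was called and none had an unadjusted p under 0.05, where 0.333% of all tests were called. DESeq2 called none either. The log2 fold changes ran from −0.29 to 0.40, and those of Eif3e from −0.29 to 0.29. With the batch as a block 4 were called, where 6.3% of all tests were: Eif3e (0.28), Eif3f (0.24) and Eif3k (0.32) in naive B cells, and Eif3e in CD4 T cells as a whole (−0.29, adjusted p = 0.0493). The CD4 T class as a whole held other subsets in each genotype, with 362 and 654 Tfh cells in cKO and 40 and 19 in control libraries, and Eif3e of Tfh cells in cKO was at 230 and 280 CPM. Outside the Tfh and Treg clusters the Eif3e value was 0.07, and whether the mix of subsets bears on the CD4 T call was not tested.

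The YFP+ libraries held few cells of these other lineages. CD8 T cells were 141 and 9 in cKO YFP+ and 157 and 27 in control YFP+ libraries, and monocytes or macrophages 125 and 22 in cKO YFP+ and 59 and 16 in control YFP+ libraries. In batch 1, Eif3e stood at 303 CPM in cKO and 308 CPM in control for CD8 T cells and at 252 and 192 CPM for monocytes or macrophages. Numbers in batch 2 were too small to compare.

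Levels over cell types were described in the 4 total libraries, taking both genotypes. Eif3e was highest in T cells: the median was 339 CPM in CD8 T cells (range 301 to 368) and 331 CPM in CD4 T cells outside Tfh and Treg (297 to 374). GCB (290 CPM), B1 (280 CPM), Treg (269 CPM), MZB (264 CPM) and pre-GCB cells (261 CPM) followed. Interferon-response B (249 CPM), plasmacytoid DC (244 CPM), transitional B (235 CPM) and naive B cells (235 CPM) came next, then NK cells (223 CPM), conventional DCs (220 CPM) and monocytes or macrophages (207 CPM). Plasma cells were at 107 CPM (102 to 125). Of the 14 pairs of neighbours in this order, only monocytes or macrophages and plasma cells did not overlap.

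Per cell the order was another one. GCB cells held 5.05 to 6.94 Eif3e UMIs per cell and plasma cells 2.63 to 3.41, while naive B cells held 1.06 to 1.69 and NK cells 0.861 to 1.56. Plasma cells had a median of 20932 to 31685 UMIs per cell, so their low CPM stood beside a per-cell count above that of naive B cells in all 4 libraries.

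Each of the other 7 genes had its own range over the 15 classes. Median levels of Eif3a ran from 263 CPM in naive B to 545 CPM in pre-GCB cells, and those of Eif3c from 192 CPM in MZB to 413 CPM in pre-GCB cells. Eif3h ran from 183 CPM in plasma cells to 481 CPM in GCB cells, Eif3k from 179 CPM in plasma cells to 359 CPM in GCB cells, and Eif3m from 146 CPM in plasma cells to 264 CPM in GCB cells. Eif3l, the least counted, ran from 41.8 CPM in MZB to 107 CPM in GCB cells. Eif3f was highest in B1 cells (604 CPM) and lowest in plasma cells (244 CPM). Eif3e was the only one of the 8 whose highest median lay in a T cell class.

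**Figure D5:**
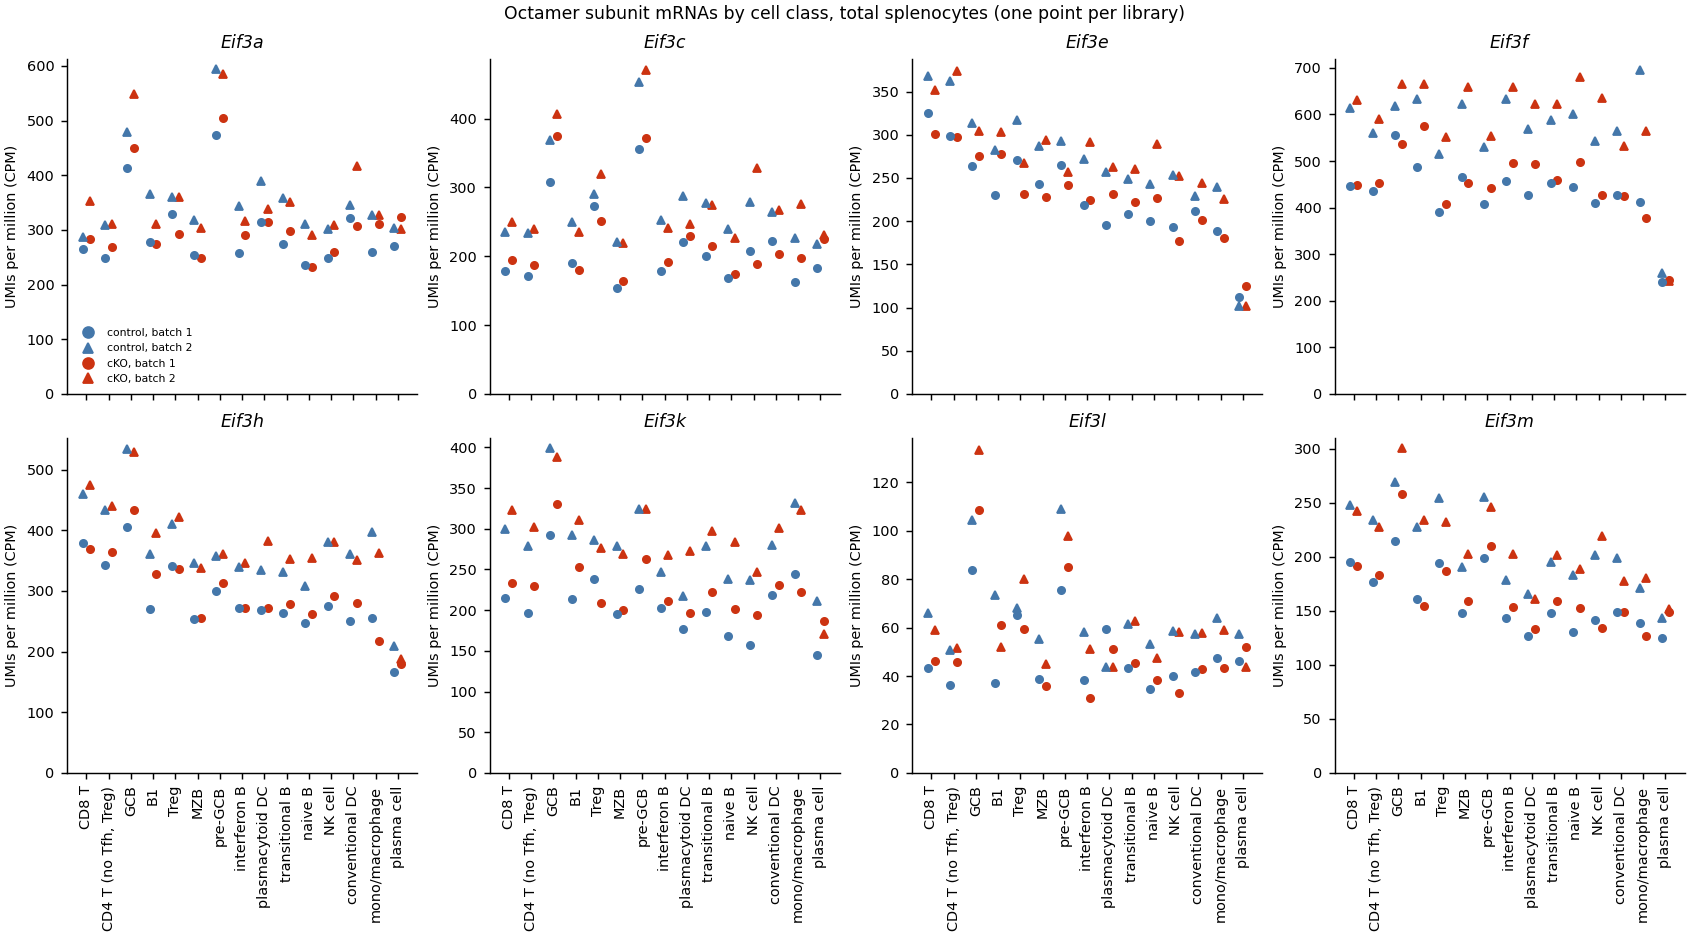
Level of each octamer gene in CPM (vertical axis, from 0) in 15 cell classes of the total libraries, ordered from left to right by the median of Eif3e, with 1 point per library; colours and shapes mark genotype and batch. The Eif3e medians run along the axis from 339 CPM (median, CD8 T) to 107 CPM (plasma cells), whereas Eif3a, Eif3c and Eif3l are high in GCB and pre-GCB cells.

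Each class was then tested against naive B cells within the 4 total libraries, with the library as a factor and TMM scaling. The percentage of genes called, given for each class, counts both directions together, unlike the counts of higher or lower members beside it. Against naive B, all 8 genes were higher in GCB cells, where 65.9% of the genes tested were called in either direction. The log2 fold changes were 1.43 for Eif3l, 0.95 for Eif3c, 0.91 for Eif3a, 0.78 for Eif3h, 0.77 for Eif3m and 0.75 for Eif3k. Eif3e (0.35, SE 0.08) and Eif3f (0.19, SE 0.08) were the 2 lowest. Their median of 0.77 stood beside 0.90 for the 5 tested eIF3 genes outside the octamer and 1.29 for the 8 proteasome lid genes.

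Pre-GCB cells had 6 of the 8 genes higher, where 59.4% of the genes tested were called. Eif3l (1.11), Eif3c (1.06) and Eif3a (1.04) led, Eif3m was at 0.51, Eif3k at 0.38 and Eif3h at 0.22. Eif3e (0.17, adjusted p = 0.0641) and Eif3f (−0.17, adjusted p = 0.0548) were not called. These libraries mix genotypes, and the cKO pre-GCB cells among them had the lower Eif3e share given above.

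Plasma cells, which make antibody, had 6 genes higher and 2 lower with TMM scaling, where 60.3% of the genes tested were called, and on plain CPM 3 of those 6 (Eif3h, Eif3k and Eif3m) were below naive B cells in all 4 libraries. Eif3l (1.03), Eif3a (1.02) and Eif3c (0.94) were the highest, and Eif3e (−0.28, SE 0.08, adjusted p = 0.0049) and Eif3f (−0.31, adjusted p = 0.000756) were lower, a direction that turned with scaling per cell. Plain CPM keeps the immunoglobulin RNA of these cells in the total. Whether this RNA bears on the difference between TMM and plain CPM was not tested. On plain CPM the mean log2 ratio to naive B cells was −1.12 for Eif3e, −0.65 for Eif3h, −0.31 for Eif3k, −0.19 for Eif3m and 0.18 for Eif3a, where TMM gave 0.19 for Eif3h, 0.53 for Eif3k and 0.65 for Eif3m. Scaled per cell, Eif3e was 1.20 and Eif3f 1.17 higher than in naive B cells, where the median of all genes was 1.51.

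CD8 T cells had 7 genes higher, where 57.5% of the genes tested were called. Eif3h (0.66) and Eif3e (0.62, SE 0.08, adjusted p = 9.79e-10) led, Eif3m was at 0.55, and Eif3f (0.07, adjusted p = 0.441) was not called. CD4 T cells outside Tfh and Treg had 5 genes higher (55.4% called over all genes), again led by Eif3e (0.55) and Eif3h (0.51). Treg cells had 5 higher and 1 lower (62.8%), led by Eif3l (0.61), with Eif3f lower at −0.32 (0.41 scaled per cell) and Eif3e at 0.11 (adjusted p = 0.235). In NK cells 3 genes were called lower and none higher with TMM scaling (47.5%): Eif3f (−0.31), Eif3e (−0.30) and Eif3k (−0.26). On plain CPM their mean log2 ratios to naive B cells were −0.14, −0.14 and −0.09. Eif3c (0.29) and Eif3h (0.18) of NK cells were above naive B cells in all 4 libraries on plain CPM.

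The myeloid classes tested were conventional DCs, monocytes or macrophages and plasmacytoid DCs, again with TMM scaling. Per cell, conventional DCs held 2.01 to 3.06 Eif3e UMIs against 1.06 to 1.69 in naive B cells. Conventional DCs had 3 genes higher (63.4% called over all genes), Eif3a (0.43), Eif3c (0.30) and Eif3k (0.27). Monocytes or macrophages had 3 higher (62% called), Eif3k (0.36), Eif3l (0.33) and Eif3a (0.23), with Eif3e at −0.17 (adjusted p = 0.0703). Plasmacytoid DCs had Eif3a higher (0.18) and Eif3m (−0.33), Eif3f (−0.24) and Eif3k (−0.22) lower (49.4% called), which scaled per cell were at 0.91, 0.99 and 1.02. On plain CPM the mean log2 ratios of Eif3m, Eif3f and Eif3k to naive B cells were −0.15, −0.07 and −0.04. In the 4 other B classes, 6 of 32 tests were called, all higher (20.8% called), 5 in B1 cells and Eif3a in transitional B cells. Over all 14 classes the 8 genes gave 50 higher and 9 lower calls in 112 tests. Of all genes tested, 7.16% to 65.9% were called per class, in either direction. The mixture differed by gene: Eif3f was lower in 4 of its calls and higher in 1, and Eif3a was higher in 11 and lower in 0. RLE size factors and leaving out immunoglobulin genes turned the sign of none of these 59 calls. Scaled per cell, which put the median of all genes between 0.18 (NK cells) and 1.85 (GCB cells), 6 of the 9 lower calls became higher: Eif3e and Eif3f in plasma cells, Eif3f in Treg cells, and Eif3f, Eif3k and Eif3m in plasmacytoid DCs.

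The 5 genes whose levels over 12 classes were most like those of Eif3e were 4 ribosomal protein genes and an elongation factor gene. Only classes with at least 50 cells in each total library entered. GCB cells, plasma cells and plasmacytoid DCs, described above, were therefore left out, and the ranks do not cover them. Pearson's r with Eif3e, taken over 48 points (12 classes in 4 libraries, log2 of CPM plus 1) and 6516 genes, was 0.945 for Rps16, 0.943 for Rps3, 0.942 for Rpl18, 0.936 for Rps23 and 0.936 for Eef1a1, the elongation factor that brings tRNA to the ribosome. Of the octamer genes, Eif3h ranked 50 (r = 0.822) and Eif3m 55 (r = 0.805), then Eif3k 206 (r = 0.554), Eif3f 252 (r = 0.529) and Eif3l 665 (r = 0.387), whereas Eif3c ranked 1278 (r = 0.256) and Eif3a 1489 (r = 0.219). Points share libraries and batches, so r is a description and carries no p.

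The rest of the translation and PCI/MPN genes gave the setting for YFP+ pre-GCB cells, where 10.8% of the genes tested were called. The 6 eIF3 genes outside the octamer all had positive log2 fold changes, with a median of 0.45 beside 0.17 for the octamer and 0.00 for all genes tested, and edgeR called 0 (4 at an unadjusted p under 0.05, 1 by DESeq2). The highest were Eif3j2 (1.15, adjusted p = 0.15) and Eif3g (0.66, adjusted p = 0.0587), and the lowest Eif3d (0.08) and Eif3b (0.43). Of 10 eIF4F and eIF2 genes 1 was called, Eif2s2, a subunit of the factor that carries the initiator tRNA (0.83, adjusted p = 0.0343); Eif4g2 was next at 0.49, and Eif4b (−0.20) and Eif4g1 (−0.10) were the lowest. Of the 8 proteasome lid genes 0 were called (2 unadjusted, 0 by DESeq2) and the median was 0.37, from Psmd13 (0.05) and Psmd11 (0.10) to Psmd6 (0.48) and Psmd14 (0.49). Of the 9 COP9 signalosome genes 0 were called (0 unadjusted, 0 by DESeq2) and the median was 0.22, from Cops7a (−0.20) and Cops3 (0.02) to Cops2 (0.42) and Cops5 (0.43). Among these 41 genes with the octamer, Eif3e had the lowest value.

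The same lists were read for the step from naive B to pre-GCB cells, where 14.1% of the genes tested were called. Of the eIF3 genes outside the octamer 2 of 6 differed, both toward a larger rise in cKO, Eif3j1 (0.56, adjusted p = 0.0161) and Eif3g (0.45, adjusted p = 0.0426), with Eif3j2 at 1.36 (adjusted p = 0.262), Eif3i at 0.29 and Eif3d at −0.01. Of the eIF4F and eIF2 genes 2 of 10 were called, Eif2s2 (0.72, adjusted p = 0.0018) and Eif4g2 (0.42, adjusted p = 0.0463), and the lowest were Eif4b (−0.43) and Eif4g1 (−0.09). Of the lid genes 2 of 8 were called, Psmd14 (0.52, adjusted p = 0.023) and Psmd7 (0.45, adjusted p = 0.0418), and the lowest were Psmd13 (−0.14) and Psmd12 (0.18). None of the 9 COP9 signalosome genes was called (2 unadjusted), with Cops2 (0.46) and Cops8 (0.43) highest and Cops7a (0.03) and Cops4 (0.13) lowest. Eif3e was the only gene of the 5 lists called with a negative difference.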

How the data were processed

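The deposited values were UMI counts per gene and cell, without normalization, in 8 matrices. The labels name GRCm38 (mm10), and the aligner, counter and annotation were not given in the sources used here. Cells were filtered as in the study (more than 200 UMIs, more than 100 genes, at most 10% mitochondrial UMIs), which kept 83704 of 83967 barcodes. Counts were scaled to 10000 per cell and log transformed, and 2000 variable genes were centred and scaled within each batch. With 30 principal components and 20 neighbours they gave Leiden clusters at resolution 1 (igraph 0.11.9, Python 3.11.15). Clusters were named from marker lists where 3 markers were each detected in 10% of cells and no other list had more of the 10 leading genes. 2 details of the naming rule were settled once the clusters had been seen, ahead of every test. UMIs were summed per library and class (at least 20 cells) and tested with edgeR 4.0.16 (quasi-likelihood F test, TMM, filterByExpr, R 4.3.3), with Benjamini-Hochberg adjustment over all genes tested and a threshold of 0.05. Every adjusted p comes from edgeR unless DESeq2 (1.42.0) is named. Counts simulated without a batch effect were used to check edgeR and DESeq2 in YFP+ pre-GCB cells. They were also used for edgeR on the step to pre-GCB, GCB against naive B, and the sort difference in pre-GCB cells. Fits with a block, fits scaled per cell and the permutation test were not checked this way. Cells marked as doublets by scrublet in scanpy 1.11.5 (0.0574% to 0.908% per library) were kept. The threshold marked too few in some libraries, so a second one (0.997% to 2.72%) was added after seeing the data.

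The labels give a batch number, and libraries of the same number deviated together: over 6218 genes the correlation of their deviations from the group means was 0.621 to 0.793 in all 6 pairs of groups. The 2 libraries of each group were farther apart than counting error (chi-square per degree of freedom of 176.7 to 392). Libraries are pools of mice, and n counts pools. Intervals are exact binomial intervals at 95%.

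The 8 genes are named in every comparison. Genes of the other lists are given as counts with the 2 highest and 2 lowest values, together with those called where few, and the 5 genes most correlated with Eif3e are named. Genes and lists were chosen with earlier results of these data known, so they are not independent of them. The alternatives were other size factors, DESeq2, no filter on low counts, scaling per cell, immunoglobulin genes left out, a stricter cell filter, doublets removed, other clusterings, the batch, or genotype with batch, as a block, and each library left out.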

Additional observations from a re-analysis of the deposited data

Results flagged for a closer look

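The effect of the cKO genotype on Eif3e differed between pre-GCB and naive B cells of the YFP+ libraries, by −1.28 on the log2 scale (SE 0.14, edgeR adjusted p = 4.18e-06), with the step upward in both control and downward in both cKO libraries. With classes from the control libraries it was −0.83 (adjusted p = 0.0845). The effect on Eif3c differed between the same classes by 0.47 (SE 0.14, adjusted p = 0.0309), a call lost without cKO YFP+ batch 1 (0.228), cKO YFP+ batch 2 (0.056) or control YFP+ batch 2 (0.202) and with cluster 0 added to naive B cells (0.127), and the value turned to −0.18 with classes from the control libraries. The effect on Eif3e differed between GCB and naive B cells by −0.50 (SE 0.14, adjusted p = 0.0361), and this call was lost when any 1 of the 4 libraries was left out (adjusted p from 0.0731 to 0.397). Groups of 2 libraries allow no test for a library that stands apart from its group.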

How the results depend on the processing

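In YFP+ pre-GCB cells the Eif3e log2 fold change was −0.39 at Leiden resolution 1.5, −0.21 with classes from the control libraries and 0.052 scaled per cell, and from −0.79 to −0.62 with a library left out. The number of octamer genes called there was 0 at resolution 1.5, 0 with classes from the control libraries, 3 with the batch as a block and 5 scaled per cell, and 0 to 1 with a library left out. With the block, Eif3e in YFP+ naive B cells was 0.55 and called, with 2 genes called. In YFP+ GCB cells Eif3e was −0.79, with 1 gene called, when classes came from the control libraries, and −0.0905 to 0.25 with a library left out. In YFP+ B-lineage cells it ran from −0.22 to 0.30. For the difference between sorts the block gave −0.60 for Eif3e in pre-GCB cells (2 genes called) and 1 gene called in B-lineage cells. For the step to pre-GCB, Eif3e was −0.83 (adjusted p = 0.0845) and Eif3c −0.18 with classes from the control libraries. Genes called were then 0, and 1 at resolution 0.5, 1 at resolution 1.5, 1 with cluster 0 among naive B cells, and 1 to 2 with a library left out. For the step to GCB, Eif3e was −0.45 with RLE size factors (0 genes called) and −0.57 to −0.39 with a library left out (0 genes in each), and 4 genes were called with classes from the control libraries. The block called 6 tests in the 5 other YFP+ classes and 4 in the classes of the total libraries, and changed no other call in genotype comparisons. Against naive B cells, scaling per cell gave 99 higher and 0 lower calls, while the median of all genes also moved up in every class. For this count, and for counts under other size factors, other clusterings or with a library left out, the share of all genes called is not given here. It turned Eif3e (1.20) and Eif3f (1.17) in plasma cells, Eif3f in pre-GCB (0.87) and Treg cells (0.41) and Eif3m (0.91), Eif3f (0.99) and Eif3k (1.02) in plasmacytoid DCs. Lower calls ran from 4 to 12 with a library left out. Eif3e in Treg cells was −0.019 without immunoglobulin genes, −0.012 without a filter on low counts, and −0.079 to 0.15 with a library left out. The cause of these shifts was not tested.

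Eif3l was the least counted of the 8 genes. Scaling per cell and scaling to a total answer different questions where cells differ in depth. Class names were rebuilt. Cluster 9 was part of pre-GCB in the main classes. With classes from the control libraries, 68.6% of its cKO YFP+ cells were in GCB. Of its control YFP+ cells, 88.8% were then in a class without a name. Whether this moved the Eif3e values between classes was not tested. Libraries are pools of mice, so the spread between single mice was not measured.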
